A study of Mus musculus with 6 samples.

Results

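Zfp503, Zfp703 and 4 genes connected with them were followed in RNA-seq data of neuromesodermal progenitors (NMPs) treated with retinoic acid (RA). The genes were found by their symbols in the gene column of the processed tables, which gave 6 genes of 20631 and 7 RefSeq transcripts of 30352. Zfp503, Zfp703 and the receptor gene Adgra2 were chosen from their change between 25 nM RA and DMSO in these same samples, so that their values are given as a description without a test. Erlin2 and Brf2 were taken because they lie beside Zfp703 on chromosome 8, and Adgra3 as the paralog of Adgra2 on chromosome 5. The NMPs were derived from mouse ESCs over 3 days, first with bFGF and then with bFGF and the WNT agonist CHIR99021. They were then kept for 2 h without either factor, in N2B27 medium with DMSO vehicle, 25 nM RA or 1 µM RA, 2 samples per condition. The samples of a condition are separate dishes, described in the methods as technical replicates. P-values therefore measure the spread between dishes of one experiment. The strain of the ESCs is 129 R1 in the sample labels and C57BL/6 in the methods of the study. Both RA conditions were compared with the same 2 DMSO samples.

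The symbols of the receptor pair are exchanged in the processed tables. The transcript NM_054044, which the tables place between Prosc and Brf2 on chromosome 8, carries the symbol Adgra3 there and is Adgra2 (Gpr124) in RefSeq. The transcript NM_133911 on chromosome 5 carries the symbol Adgra2 and is Adgra3 (Gpr125) in RefSeq. Identifier and chromosome of both transcripts match RefSeq, whereas the symbols are interchanged, as they are for 2 further gene pairs in the tables. The RefSeq names are used below, so that Adgra2 means the gene beside Zfp703 and Adgra3 the gene on chromosome 5.

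Zfp503 and Zfp703 are the mouse members of the NET family of zinc finger proteins. They act as transcriptional corepressors without known binding of their own to DNA, and recruit Groucho (Tle) proteins and histone deacetylases. Adgra2 is an adhesion G protein-coupled receptor that works with the membrane protein Reck as a coreceptor for Wnt7 ligands, and it is best known from the endothelium of the brain. Erlin2 is a membrane protein of the endoplasmic reticulum that takes part in the degradation of activated IP3 receptors, and Brf2 is an initiation factor for a class of small genes read by RNA polymerase III. The human counterparts of Zfp703, Erlin2, Adgra2 and Brf2 lie together in a chromosomal segment that is often amplified in breast cancer. RA acts by binding nuclear receptors (RARs), which recognize direct repeats of a short core motif in DNA.

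The reads were 50 bases long, and the sequences of the paralogs decide whether such a read can be shared between them. The most similar stretches of 50 bases in the Zfp503 and Zfp703 transcripts have 44 identical bases, and they are shown because they are the place where a read could most easily be assigned to the wrong gene. Bases that are identical between the paralogs are in capitals and those that differ are in lower case.
Zfp503, chr14:21987280-21987329, minus strand, exon 2 of 3, coding bases 205 to 254: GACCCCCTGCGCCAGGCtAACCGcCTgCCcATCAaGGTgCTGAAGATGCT
Zfp703, chr8:26977486-26977535, plus strand, exon 1 of 2, coding bases 133 to 182: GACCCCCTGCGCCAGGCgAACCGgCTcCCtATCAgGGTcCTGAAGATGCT
The corresponding stretches of the receptor pair have 42 identical bases and run over the junction of exons 17 and 18 in both genes.
Adgra2, chromosome 8, coding bases 2651 to 2700: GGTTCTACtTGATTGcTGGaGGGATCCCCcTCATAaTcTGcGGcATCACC
Adgra3, chromosome 5, coding bases 2594 to 2643: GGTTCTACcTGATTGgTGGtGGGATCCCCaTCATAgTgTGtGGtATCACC
These sequences are from the GENCODE transcripts of GRCm38 (mm10), the build of the tables. Over the whole aligned coding sequence 71.5% of bases were identical between Zfp503 and Zfp703, and 62.3% between Adgra2 and Adgra3. No stretch of 50 bases is identical between the whole transcripts of either pair, and the longest identical runs have 20 and 17 bases.

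Of the 6 genes, Zfp503 and Adgra3 have an entry in the RefSeq promoter table (GRCm38.p6). The 250 bases before the start of Zfp503 are shown because this gene had the highest change of the 6.
Zfp503 promoter, chr14:21989602-21989851, minus strand: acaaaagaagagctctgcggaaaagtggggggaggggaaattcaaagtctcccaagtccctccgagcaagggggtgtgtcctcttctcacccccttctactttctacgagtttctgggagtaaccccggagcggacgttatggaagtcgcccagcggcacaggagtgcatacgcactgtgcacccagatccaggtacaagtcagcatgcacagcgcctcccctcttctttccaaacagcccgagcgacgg
The window searched reached 50 bases further, to 300 bases, and held the core motif of RARs on neither strand, in any of the 4 spellings for which shares are given below. The direct repeats DR5 and DR2, 2 such motifs with 5 and 2 bases between them, contain the single motifs and were therefore not present either. The same held for the Adgra3 promoter. Among 32851 promoters of this length, AGGTCA was found in 16.255% and AGTTCA in 13.993%. The spelling GGGTCA was found in 13.695% and GGTTCA in 10.392%, while DR2 was found in 0.268% and DR5 in 0.097%. Only this window was searched, and the letters found there say nothing of binding elsewhere.

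The samples held 31753556 to 42029348 estimated counts, and 15143 genes passed the filter on low counts, all 6 genes described here among them. The genes lowest in DMSO had 54 to 80 counts per DMSO sample, so that they passed it without their RA-treated samples. The NMP marker T lay between 367 and 380 RPKM in every sample, and the summed NMP markers at 526 to 539 RPKM in DMSO, 586 to 603 in 25 nM RA and 584 to 602 in 1 µM RA. By edgeR's likelihood ratio test at an adjusted p under 0.1, 5 of these 8 markers were called higher and 1 lower at each dose, where the shares of all genes called higher and lower were 4.5% and 3.55% for 25 nM RA and 8.54% and 11.2% for 1 µM RA. Of the 12 calls, 8 held without each sample in turn, and these 8 held in DESeq2 as well. Those lost were Cdx2 at 25 nM RA (DESeq2 0.51, and without DMSO replicate 1 or either sample with 25 nM RA), Fgf8 at 25 nM RA (without RA 25 nM replicate 2) and Wnt3a at both doses (DESeq2 0.51 and 0.13, and without DMSO replicate 2, RA 25 nM replicate 1 or RA 1 µM replicate 1, and at 25 nM RA also without DMSO replicate 1 and in the quasi-likelihood test at 0.12). Markers of pluripotent ESCs summed to 460 to 496 RPKM, of which Pou5f1 made up most, and no ESC sample is in the series for comparison. The likelihood ratio test, the quasi-likelihood test and DESeq2 called 0 of these 6 markers at either dose (0 and 1 at an unadjusted p under 0.05). Feeder fibroblast markers summed to 4.88 to 5.78 RPKM and committed neural markers to 0.298 to 0.378 RPKM (0 of 2 called by any of these tests, 0 at an unadjusted p under 0.05). Of 5 feeder markers tested, Col1a1, Col1a2 and Postn were called lower at 1 µM RA (where 11.2% of all genes were), but 0 of these 3 calls held in DESeq2 (adjusted p = 0.18, 0.11 and 0.44). Without DMSO replicate 2 or RA 1 µM replicate 2 those of Col1a1 and Postn were lost as well, and without either sample with 25 nM RA and in the quasi-likelihood test (0.13) that of Postn. Presomitic mesoderm markers went from 37.6 RPKM in both DMSO samples to 26.4 to 28.7 in 25 nM RA and 21.1 to 23.0 in 1 µM RA, and endoderm markers from between 26.3 and 27.9 RPKM to 20.9 to 21.0 and 18.6 to 19.6. Of 4 presomitic markers tested 1 was called higher at each dose, 2 lower at 25 nM RA and 3 lower at 1 µM RA, and of 3 endoderm markers 2 were called lower at each dose. In bulk RNA, fewer cells of a type and less RNA per cell cannot be told apart. The part of these shifts in the values below was not tested.

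Zfp503 (NM_145459, chr14:21983962-21989601, minus strand) was read at a low level without RA and was the gene of this group with the highest ratio to DMSO. It had 0.327 and 0.303 RPKM with DMSO, 4.62 and 4.23 after the low RA dose, and 6.81 and 6.03 after the high one. These values rest on 71 and 54 counts in DMSO, 749 and 861 in 25 nM RA, and 1246 and 1116 in 1 µM RA. The groups did not overlap, and both RA-treated groups lay far above DMSO. Relative to DMSO the log2 fold change was 3.80 ± 0.15 (SE) for 25 nM RA, which is 13.9-fold, and 4.33 ± 0.15 for 1 µM RA, or 20.2-fold. Between the doses the RPKM went from 4.42 ± 0.280 (SD, n = 2) to 6.42 ± 0.557 (SD, n = 2), a log2 difference of 0.54 ± 0.08 (SE).

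Zfp703 (chr8:26977336-26981462, plus strand) was read at a higher level than Zfp503 in DMSO and changed less. Summed over its transcripts, it had 1.00 and 1.05 RPKM for DMSO, 2.73 and 3.05 for 25 nM RA and 2.97 and 2.92 for 1 µM RA. The counts were 164 and 143 in DMSO, 335 and 472 in 25 nM RA, and 411 in each sample with 1 µM RA. All 4 RA-treated samples lay above both DMSO samples, while the ranges of the doses overlapped. On the log2 scale Zfp703 was higher than in DMSO by 1.50 ± 0.11 (SE) with 25 nM RA and by 1.51 ± 0.11 with 1 µM RA, 2.82-fold and 2.86-fold. The log2 difference between the doses was 0.02 ± 0.09, with a 95% interval from -0.16 to 0.20. An antisense gene, Gm45371, is annotated across 2611 bases of Zfp703 and has no row in the tables. The library kit keeps strand, but whether strand was used in counting is not stated, so that reads of the antisense gene cannot be told apart from those of Zfp703.

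**Figure D1:**
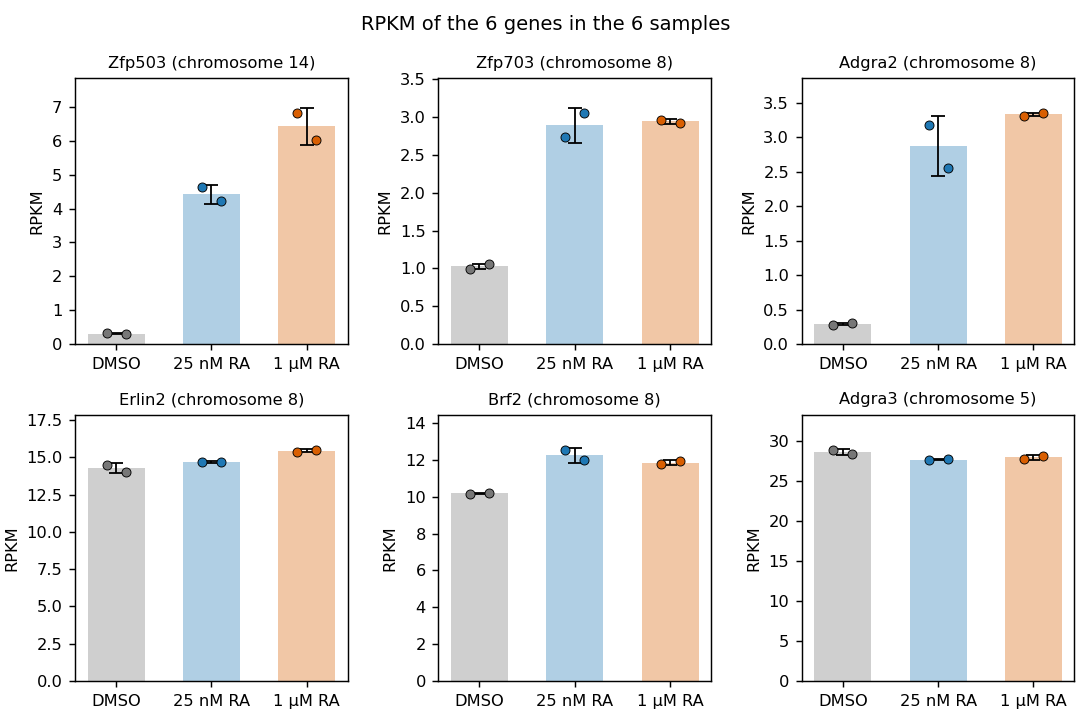
RPKM of the 6 genes (y axis, linear from 0, own scale per panel) by condition. Points are the 2 samples of a condition, bars their mean and error bars the SD (n = 2). Zfp503, Zfp703 and Adgra2 lay higher in every RA-treated sample than in DMSO, whereas Adgra3 stayed between 27.6 and 28.9 RPKM.

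The 2 transcripts of Zfp703 have the same start and end in the tables and lengths of 3171 and 3305 bases, so that most reads had to be divided between them by the authors' estimation. The shorter one, NM_001101502, had 145 and 103 estimated counts in DMSO, 286 and 376 in 25 nM RA, and 343 and 322 in 1 µM RA. The longer one, NM_001110508, had 19.1 and 40.0 in DMSO, 48.5 and 96.2 in 25 nM RA, and 68.3 and 88.9 in 1 µM RA. Both were higher in every RA-treated sample than in either DMSO sample. With 25 nM RA the log2 fold changes were 1.53 ± 0.19 (SE) for NM_001101502 and 1.32 ± 0.53 for NM_001110508, and with 1 µM RA they were 1.52 ± 0.19 and 1.45 ± 0.53. The share of the longer transcript ranged from 11.6% (95% Wilson interval 7.54% to 17.4%) to 28.0% (21.3% to 35.8%), and both extremes were DMSO samples. The spread within DMSO thus covered the shares of all RA-treated samples, which lay between 14.6% and 21.7%. The intervals cover counting error and not the division of reads between the transcripts.

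**Figure D2:**
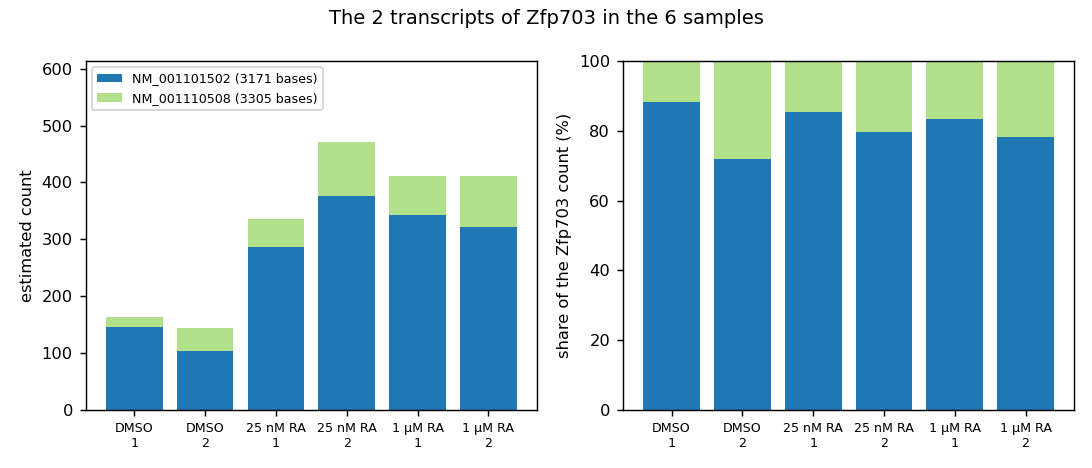
The 2 RefSeq transcripts of Zfp703 in each of the 6 samples, as estimated counts (left, y axis from 0) and as shares of the gene's count in percent (right). The share of the longer transcript differed most between the DMSO samples, 11.6% and 28.0%.

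Adgra2 (NM_054044, chr8:27085841-27123436, plus strand) starts 108.5 kb beyond the start of Zfp703 and changed more than Zfp703. RPKM values were 0.282 and 0.304 for DMSO, 3.18 and 2.56 for 25 nM RA and 3.31 and 3.35 for 1 µM RA. The counts behind these values were 80 and 71 in DMSO, 674 and 683 in 25 nM RA, and 793 and 812 in 1 µM RA. The RA-treated samples lay above both DMSO samples, and those with 1 µM RA above those with 25 nM RA. On the log2 scale it was higher than in DMSO by 3.28 ± 0.14 (SE) with 25 nM RA and by 3.50 ± 0.14 with 1 µM RA, 9.73-fold and 11.3-fold, with a log2 difference of 0.22 ± 0.09 between the doses. Without replicate 2 of 25 nM RA that difference was 0.07, and without replicate 1 it was 0.37.

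Because Adgra2 is known from endothelium, endothelial markers were read in the same samples. Of 6 such markers 5 are in the tables, and their summed RPKM was 3.47 to 3.82 in DMSO, 3.61 to 3.69 in 25 nM RA and 3.36 in both samples with 1 µM RA. Kdr, a VEGF receptor that mesodermal cells also express, made up most of the sum, and no marker was at 0 in every sample. Pecam1 rose at 25 nM RA (RPKM 0.29 and 0.38 in DMSO, 0.59 and 0.63 in 25 nM RA, log2 fold change 0.88 ± 0.19, adjusted p = 0.00016 by edgeR's likelihood ratio test). Cdh5, the cadherin of endothelial junctions, lay between 0.06 and 0.09 RPKM in all samples with no call at either dose. At 1 µM RA Pecam1 was called higher (adjusted p = 0.0054, lost in DESeq2 at 0.17 and without DMSO replicate 1 at 0.22) and Kdr lower (adjusted p = 0.0008). The low dose thus gave 1 higher call among the 5 markers tested, and the high dose gave 1 higher and 1 lower. Genome-wide, higher calls made up 4.5% and lower ones 3.55% for the low dose, against 8.54% and 11.2% for the high. So few calls among 5 genes are no result about the list. Which cells the Pecam1 reads came from was not tested, and neither was the part of endothelial cells in the Adgra2 values.

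In RPKM, which is scaled by transcript length, the levels of the 6 genes fell into a high and a low set in DMSO. Adgra3 was highest at 28.6 ± 0.384 (SD, n = 2), followed by Erlin2 at 14.3 ± 0.334 and Brf2 at 10.2 ± 0.00573. Zfp703 at 1.03 ± 0.0385 came next, and Zfp503 at 0.315 ± 0.0171 and Adgra2 at 0.293 ± 0.0160 were lowest and overlapped. In 25 nM RA Zfp503 stood above Zfp703 and Adgra2, whose samples overlapped at 2.89 ± 0.228 and 2.87 ± 0.436 RPKM. In 1 µM RA the order among the 3 was Zfp503, Adgra2 at 3.33 ± 0.0257 and Zfp703 at 2.94 ± 0.0308, without overlap. The order of Adgra3, Erlin2 and Brf2 above them was kept in all 3 conditions.

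Erlin2 and Brf2 were compared by edgeR's likelihood ratio test over all 15143 genes with Benjamini-Hochberg adjustment, and a gene was called at an adjusted p under 0.1. Brf2 was called higher at both doses and Erlin2 at neither, where 4.5% of all genes tested were called higher at 25 nM RA and 8.54% at 1 µM RA. Erlin2 (NM_153592, chr8:27023799-27039435, plus strand) starts 46.5 kb beyond the start of Zfp703 and had 14.5 and 14.0 RPKM in DMSO, 14.7 in both samples with 25 nM RA, and 15.4 and 15.5 in 1 µM RA. Its log2 fold change was 0.04 ± 0.05 (SE, 95% interval -0.06 to 0.14, adjusted p = 0.86) at 25 nM RA and 0.11 ± 0.05 (0.01 to 0.21, adjusted p = 0.16) at 1 µM RA. The samples of the 3 conditions did not overlap in RPKM, but the difference did not pass the test, and its intervals lie below the log2 fold changes of Zfp703 and Prosc on either side. The share of all genes whose samples separate in this way was not counted. Non-overlap of samples, here and for the other genes, is therefore a description and no sign of a change.

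Brf2 (NM_025686, chr8:27123832-27128632, minus strand) is transcribed towards Adgra2 and ends near it. Its RPKM was 10.18 and 10.19 in the DMSO samples, 12.56 and 11.98 for 25 nM RA and 11.76 and 11.94 for 1 µM RA, without overlap of either dose with DMSO. The log2 fold change was 0.26 ± 0.07 (SE, 95% interval 0.13 to 0.40, adjusted p = 0.0042) at 25 nM RA and 0.21 ± 0.07 (0.07 to 0.35, adjusted p = 0.02) at 1 µM RA. The doses did not differ beyond their error (log2 difference -0.05 ± 0.07, 95% interval -0.19 to 0.08, adjusted p = 0.81). The call at 25 nM RA was lost with DESeq2 (adjusted p = 0.17) and without RA 25 nM replicate 1 (0.12), and that at 1 µM RA with DESeq2 (0.2) and without DMSO replicate 1 (0.15). In the tables Adgra2 and Brf2 are 395 bases apart, whereas the RefSeq gene models share 98 bases and the GENCODE models 73 bases at their ends. Brf2 gained fewer counts than Adgra2 (725 and 596 counts in DMSO, 668 and 801 in 25 nM RA), and whether reads of one gene were counted for the other was not tested.

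The question whether the neighbours of Zfp703 respond with it was put to every gene whose start lies within 1 Mb of its start, taken by position. There were 19 such genes in the tables, 14 passed the filter, and 13 of these remain when Adgra2, chosen by its change, is set aside. Of the 13 genes, 3 were called higher at 25 nM RA (Prosc, Brf2 and Rab11fip1) and 3 at 1 µM RA (Rnf170, Prosc and Brf2), and 0 were called lower at either dose by the likelihood ratio test. Without adjustment, 0 had a lower value at p under 0.05 with 25 nM RA and 1 with 1 µM RA, and the quasi-likelihood test and DESeq2 also called 0 lower. Of all genes tested, 4.5% were called higher and 3.55% lower by the low dose, and 8.54% higher and 11.2% lower by the high dose. The median log2 fold change of the 13 genes was 0.04 with 25 nM RA and 0.07 with 1 µM RA, and that of all genes tested was 0.00 at either dose.

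Prosc (Plpbp, a pyridoxal phosphate binding protein) lies between Erlin2 and Adgra2 and starts 65.2 kb beyond the start of Zfp703. Its RPKM was 15.3 and 15.2 in DMSO, 19.0 and 19.2 in 25 nM RA, and 21.0 in both samples with 1 µM RA. The conditions did not overlap, and the duplicates of each lay close together. Against DMSO the log2 fold change was 0.31 ± 0.05 (SE, adjusted p = 1.1e-07) at 25 nM RA and 0.46 ± 0.05 (adjusted p = 1.9e-17) at 1 µM RA, and both calls held in DESeq2 and without each sample in turn. It was the only one of the 13 genes called between the doses (log2 difference 0.15 ± 0.05, adjusted p = 0.094, where 0.792% of all genes were called higher and 2.62% lower), and that call was lost in the quasi-likelihood test (0.12) and in DESeq2. Its main transcript NM_054057, which held 92.1% to 93.4% of the counts, had log2 fold changes of 0.30 ± 0.06 and 0.46 ± 0.06, called at both doses in the fit on single transcripts. In that fit 2.25% of the transcripts were called higher at 25 nM RA and 3.8% at 1 µM RA. An antisense gene, Proscos, overlaps 488 bases at the start of Prosc and has no row in the tables.

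Rab11fip1, an effector of Rab11 in endosome recycling, starts 197.3 kb beyond the start of Zfp703. Its RPKM was 5.09 and 4.99 in DMSO, 5.81 and 5.90 in 25 nM RA, and 5.53 and 5.45 in 1 µM RA. It rose on the log2 scale by 0.22 ± 0.05 (SE, adjusted p = 0.0017) at 25 nM RA, a call lost without RA 25 nM replicate 2 (0.11). In the likelihood ratio test on single transcripts at 25 nM RA, its longer transcript had 0.27 ± 0.08 (adjusted p = 0.045, 0.21 in the quasi-likelihood test). The shorter one had 0.11 ± 0.12 (adjusted p = 0.96) and was not called. For the gene, the log2 difference of 0.13 ± 0.06 at 1 µM RA did not pass the test (adjusted p = 0.11), though it did in the quasi-likelihood test (0.096) and with a filter of 50 counts (0.094). Rnf170, the ubiquitin ligase that works with Erlin2, lies 858.0 kb before the start of Zfp703 and had log2 fold changes of -0.02 ± 0.07 and 0.18 ± 0.07 (adjusted p = 0.95 and 0.074). Its call at 1 µM RA was lost with DESeq2 (0.3), without either DMSO sample (0.21 and 0.3) and without RA 1 µM replicate 1 (0.61).

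The remaining 8 tested genes within 1 Mb, other than Erlin2, were called at neither dose. They are Pomk, Fnta, Hook3 and Thap1 before Zfp703, and 4933416M07Rik, Got1l1, Adrb3 and Eif4ebp1 beyond it. Eif4ebp1, the translation repressor 4E-BP1 and the most highly read of them, had 138 and 134 RPKM in DMSO, 148 and 144 in 25 nM RA, and 139 and 143 in 1 µM RA (adjusted p = 0.28 and 0.56). Adrb3 had the largest log2 difference of them, -0.20 ± 0.17 and -0.35 ± 0.17 (adjusted p = 0.69 and 0.17). The 5 genes that did not pass the filter were 1700047A11Rik, 2310008N11Rik, Gm9731, Tex24 and Chrna6, all under 0.15 RPKM in every sample.

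**Figure D3:**
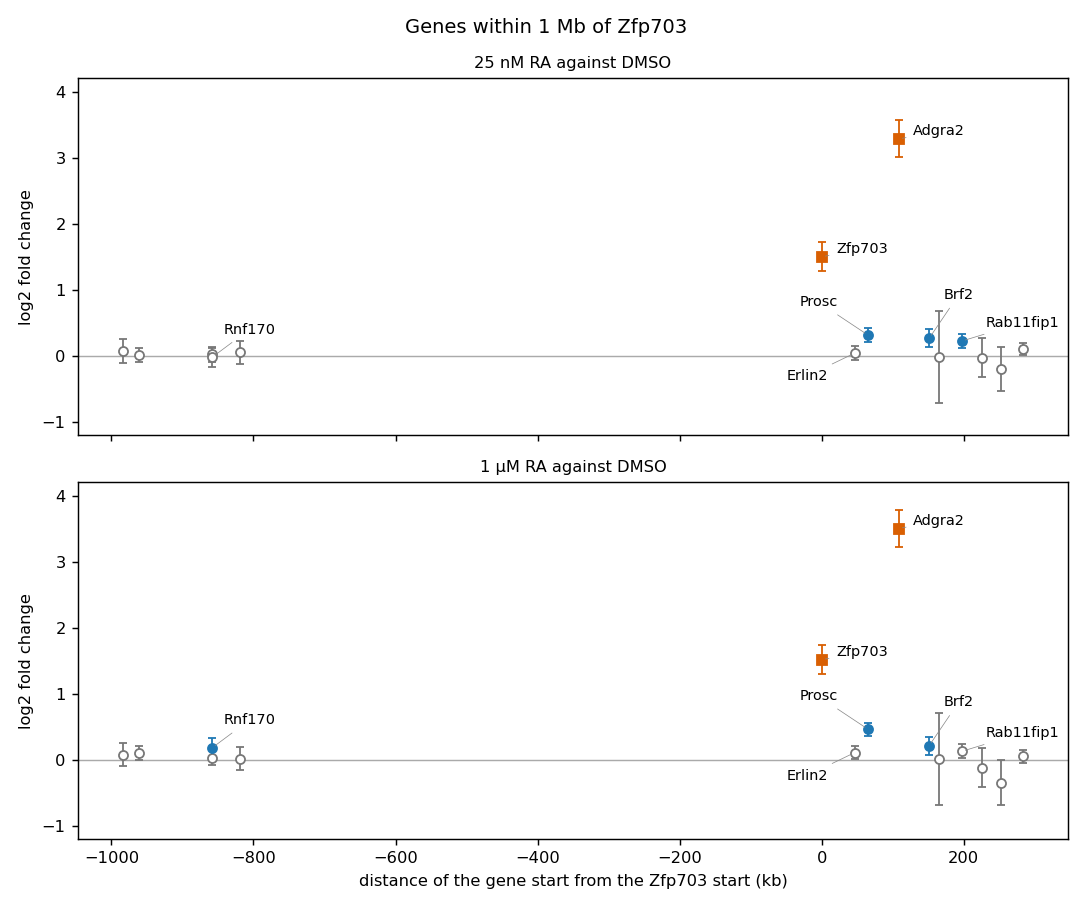
Log2 fold change against DMSO (y axis) by distance of the gene start from the Zfp703 start in kb (x axis) for the genes within 1 Mb that passed the filter, at 25 nM RA (top) and 1 µM RA (bottom). Error bars are 95% intervals (1.96 SE), orange squares the genes chosen by their change, filled blue circles genes called at an adjusted p under 0.1 and open circles genes not called. Zfp703 and Adgra2 stand apart from all other genes, whose log2 fold changes lay between -0.35 and 0.46.

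Adgra3 (NM_133911, chr5:49959951-50058996, minus strand), the paralog of Adgra2, showed no such difference. Its RPKM was 28.9 and 28.4 in DMSO, 27.6 and 27.8 in 25 nM RA, and 27.8 and 28.2 in 1 µM RA. The RA-treated samples lay slightly below DMSO without overlap. The log2 fold change was -0.05 ± 0.05 (SE, 95% interval -0.15 to 0.04, adjusted p = 0.72) at 25 nM RA and -0.04 ± 0.05 (-0.14 to 0.05, adjusted p = 0.64) at 1 µM RA. These values rest on 4754 to 6664 counts per sample, so that the interval excludes a change of the size seen for Adgra2. Its single tested neighbour within 1 Mb, Kcnip4, was called at neither dose (adjusted p = 0.88 and 0.3).

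The same distance around Zfp503 on chromosome 14 held 10 genes, of which 6 were tested. Kat6b, a histone acetyltransferase whose start lies 489.8 kb away, was called higher at 25 nM RA, where 4.5% of all genes were. A single call among 6 is no result about the neighbours. The likelihood ratio test, the quasi-likelihood test and DESeq2 called 0 of 6 at 1 µM RA (0 also had an unadjusted p under 0.05). The RPKM of Kat6b was 2.82 and 2.74 in DMSO, 3.26 and 3.30 in 25 nM RA, and 3.04 and 2.94 in 1 µM RA. The log2 fold change was 0.24 ± 0.06 (SE, adjusted p = 0.0046) at 25 nM RA and 0.10 ± 0.06 (adjusted p = 0.33) at 1 µM RA. The call was lost with DESeq2 (0.14) and without RA 25 nM replicate 2 (0.14). Comtd1, Vdac2, Samd8, Adk and Ap3m1 had log2 fold changes between -0.05 and 0.09 at both doses and were not called.

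Proteins with which Zfp503 and Zfp703 act were read next. Of 13 Groucho proteins and other NET partners, all of which were tested, 3 were called higher and 1 lower at 25 nM RA, and 4 higher and 5 lower at 1 µM RA, with medians of 0.01 and -0.02. Over all genes tested, 4.5% were called higher and 3.55% lower at 25 nM RA, 8.54% higher and 11.2% lower at 1 µM RA, and the medians were 0.00. Tle6, a divergent Groucho protein, had 0.26 and 0.36 RPKM in DMSO, 0.94 and 1.09 in 25 nM RA, and 1.22 and 1.31 in 1 µM RA (log2 fold change 1.73 ± 0.23 and 2.03 ± 0.23, adjusted p = 1.5e-13 and 7.5e-21). Tle2 rose from 0.09 and 0.08 RPKM to 0.32 and 0.28 in 25 nM RA and 0.29 and 0.32 in 1 µM RA (1.74 ± 0.35 and 1.83 ± 0.35, adjusted p = 4.1e-06 and 3.5e-07). The short family member Aes (Tle5), which lacks the WD repeats of the others, rose by less, with log2 fold changes of 0.36 ± 0.07 and 0.37 ± 0.07 (adjusted p = 1.4e-05 and 3e-06). Tle4, a full-length corepressor, fell at both doses (-0.25 ± 0.05 and -0.39 ± 0.05, adjusted p = 8.5e-05 and 1.9e-11), and Tle3 fell at 1 µM RA (-0.24 ± 0.05, adjusted p = 0.00015). These calls held in DESeq2 and without each sample in turn. Tle1 and Sin3a, called lower, and Hdac2, called higher, at 1 µM RA each lost the call without at least 1 sample (highest adjusted p 0.26, 0.2 and 0.3). The call of Tle1 was also lost in DESeq2 (adjusted p = 0.15).

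The Sp family shares with NET proteins a short conserved box. Of 7 family members tested, 2 were called lower at 25 nM RA and 3 at 1 µM RA (3.55% and 11.2% of all genes), and 0 were called higher at either dose by the likelihood ratio test, the quasi-likelihood test or DESeq2 (0 at an unadjusted p under 0.05). Sp5, a Wnt target gene, had 18.9 and 17.3 RPKM in DMSO, 15.4 and 13.1 in 25 nM RA, and 12.2 and 10.6 in 1 µM RA (log2 fold change -0.36 ± 0.08 and -0.67 ± 0.08, adjusted p = 0.00023 and 3.8e-15). The 25 nM RA call of Sp5 was lost without RA 25 nM replicate 2 (0.11). Sp8 fell at 1 µM RA (-0.37 ± 0.07, adjusted p = 5.3e-07), and Sp2 fell at both doses (adjusted p = 0.031 and 0.00048), though at 25 nM RA not in DESeq2 (0.58) or without DMSO replicate 1 (0.28) or either sample with 25 nM RA (0.14 and 0.28).

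The tables hold 26 adhesion G protein-coupled receptor genes, and 14 others than Adgra2 were tested. Of these, 2 were called higher at each dose, 2 lower at 25 nM RA and 4 lower at 1 µM RA, with medians of -0.07 and -0.13. The shares of all genes were 4.5% and 8.54% called higher and 3.55% and 11.2% called lower, so that the higher calls at 1 µM RA were not far from the share of all genes. Adgre5 (CD97) had the largest rise of them, from 2.89 and 2.61 RPKM in DMSO to 4.37 and 4.28 in 25 nM RA and 4.34 and 3.91 in 1 µM RA (log2 fold change 0.64 ± 0.08 and 0.58 ± 0.09, adjusted p = 2.2e-12 and 4.9e-10). Adgrg1 (GPR56) fell from 1.52 and 1.25 RPKM to 1.03 and 0.94 and then 0.82 and 0.90 (-0.51 ± 0.13 and -0.70 ± 0.13, adjusted p = 0.0023 and 2.8e-06), though the 25 nM RA call was lost in DESeq2 (0.2) and without DMSO replicate 1 (0.24) or RA 25 nM replicate 2 (0.12). Adgrl1, Adgrl2 and Adgrv1, also called lower, and Adgrb1, called higher, changed by at most 0.49 in either direction on the log2 scale, and 3 of their 6 calls were lost without at least 1 sample, those of Adgrb1 at 25 nM RA and Adgrv1 also in DESeq2 (0.51 and 0.3). Of the Adgra2 coreceptor complex and Wnt7 pathway 7 genes were tested, of which 1 was called higher at each dose and 1 lower at 1 µM RA, with the same shares of all genes, and a single call among 7 is no result about the list. The ligand gene Wnt7b had 0.65 and 0.46 RPKM in DMSO, 0.91 and 0.73 in 25 nM RA, and 0.80 and 0.88 in 1 µM RA (adjusted p = 0.029 and 0.0068, both lost in DESeq2 at 0.41 and 0.13 and without DMSO replicate 2 at 0.54 and 0.24, and the first without RA 25 nM replicate 1 at 0.4). The coreceptor gene Lrp5 fell at 1 µM RA (log2 fold change -0.21 ± 0.05, adjusted p = 0.0019).

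Among the partners of Erlin2 and Brf2, the calls at 1 µM RA lay near the shares of all genes called, 8.54% higher and 11.2% lower. Of 11 Erlin2 partners tested, Itpr3 was called higher at 25 nM RA, and at 1 µM RA Rnf170 was called higher and the ubiquitin ligase gene Syvn1 lower (log2 fold change -0.34 ± 0.08, adjusted p = 0.00068). The Itpr3 call, of an IP3 receptor gene (0.19 ± 0.07, adjusted p = 0.05), was lost in DESeq2 (0.31) and without DMSO replicate 1 (0.65) or either sample with 25 nM RA (0.32 and 0.16). Of 15 genes of RNA polymerase III initiation, 0 were called at 25 nM RA by the likelihood ratio test, the quasi-likelihood test or DESeq2 (1 at an unadjusted p under 0.05). At 1 µM RA 2 were called lower, Snapc4 (-0.21 ± 0.06, adjusted p = 0.003) and Gtf3c1 (-0.14 ± 0.05, adjusted p = 0.029, lost without DMSO replicate 1 at 0.27 and RA 1 µM replicate 1 at 0.11). Of 16 tested mouse counterparts of the human amplified segment, other than Zfp703 and Adgra2, the same Prosc, Brf2 and Rab11fip1 were called higher at 25 nM RA, and at 1 µM RA Prosc and Brf2 were higher and Fgfr1 and Whsc1l1 lower, where the shares of all genes were those given above. Fgfr1, an FGF receptor over 1 Mb from Zfp703, changed by -0.15 ± 0.05 (adjusted p = 0.019) and Whsc1l1, a histone methyltransferase gene, by -0.22 ± 0.06 (adjusted p = 0.0064). Without RA 1 µM replicate 1 both calls were lost (0.14 and 0.17), as was that of Fgfr1 without DMSO replicate 1 (0.22) and that of Whsc1l1 without DMSO replicate 2 (0.14). Over all 7 lists there were 43 calls at the 2 doses, of which 23 held without each sample in turn and 32 in DESeq2. In the order described, the lists had 13, 7, 14, 7, 11, 15 and 16 tested genes, each compared at either dose. Among all genes the low dose gave 4.5% higher and 3.55% lower calls, and the high dose 8.54% and 11.2%. Whether the pooled 43 exceed these shares was not tested, so that the count only shows how many calls held.

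To place Zfp503, Zfp703 and Adgra2 among other genes, log2 CPM relative to the DMSO mean was compared over the 6 samples with that of 11258 genes that passed the filter and had at least 1 RPKM in a condition. Likeness was measured as the root mean square difference on the log2 scale, and it is a description of 6 samples in 3 conditions. Closest to Zfp703 were Nt5e, B3gnt7, Rin2, Nrip1 and Sh2d5, with differences of 0.07 to 0.10. Nt5e, the ectoenzyme that makes adenosine, went from 14.8 ± 0.431 RPKM (SD, n = 2) in DMSO to 40.3 ± 0.0199 in 25 nM RA and 43.9 ± 1.03 in 1 µM RA, and B3gnt7, a glycosyltransferase gene, from 16.4 ± 0.0329 to 45.2 ± 1.08 and 48.6 ± 1.31. Nrip1, a corepressor of nuclear receptors, went from 2.66 ± 0.137 to 7.05 ± 0.0389 and 8.02 ± 0.126 RPKM. Sh2d5 was read at a lower level than Zfp703 in DMSO and the other 4 at higher levels, so that the likeness is one of change and not of level. With 0.472 RPKM as its mean in DMSO, Sh2d5 passed the limit of 1 RPKM only through its RA-treated samples.

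Zfp503 had no neighbour as close. Its nearest gene was Lrrc10b (0.21), followed by Tal2 (0.38). The RA receptor gene Rarb (0.54) and the homeobox gene Gbx2 (0.55) were also among its 5 nearest. In the DMSO samples Lrrc10b had 0.047 and 0.046 RPKM and Tal2 0.170 and 0.062. The likeness of these 2 genes thus rests on values near the floor. Lrrc10b, Tal2 and Rarb passed the limit of 1 RPKM only through their RA-treated samples. Rarb rose more than Zfp503, from 0.237 ± 0.0322 RPKM in DMSO to 5.28 ± 0.440 in 25 nM RA and 6.77 ± 0.171 in 1 µM RA, and it lies on chromosome 14 as well. Among the 3 genes nearest to Adgra2 were Gbx2 (0.16) and the arginase gene Arg1 (0.23). None of the 13 places was taken by another gene of chromosome 8. The shares of the compared genes on chromosomes 8 and 14 were not counted, so that neither point is a result about position. With Pearson's correlation as the measure, 2 of the 5 genes nearest to Zfp503, 0 of the 5 for Zfp703 and 0 of the 3 for Adgra2 were the same.

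**Figure D4:**
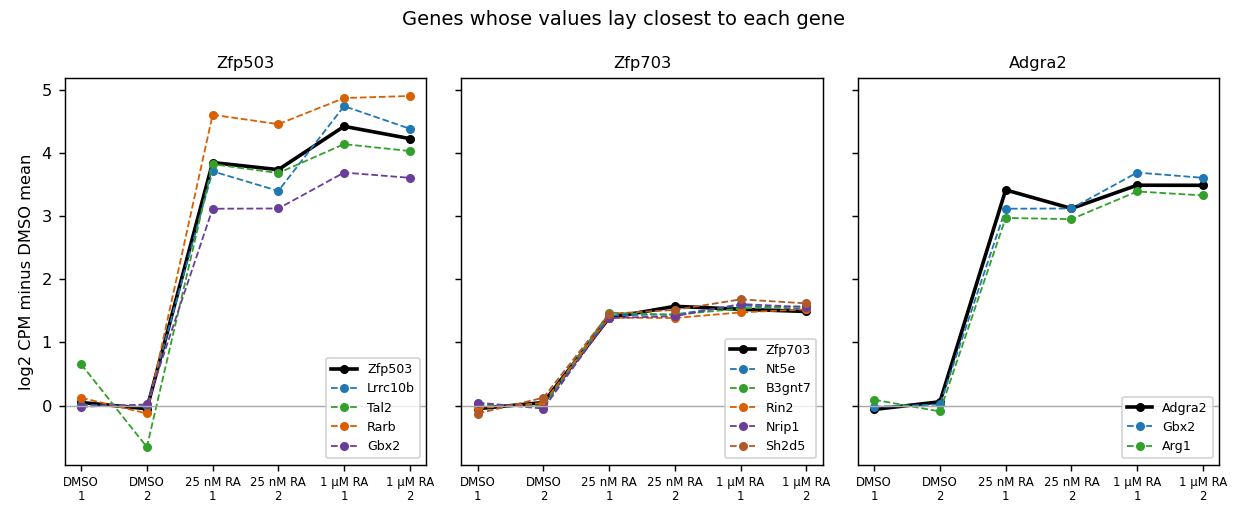
Log2 CPM minus the mean of the DMSO samples (y axis) in the 6 samples (x axis) for Zfp503, Zfp703 and Adgra2 (black) and genes with the smallest root mean square differences from each (colours), without 1 gene that is not reported here. Lines only join the points of a gene. The 5 genes nearest to Zfp703 differed from it by 0.07 to 0.10, those drawn for Zfp503 by 0.21 to 0.55.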

How the data were processed

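RNA-seq was analysed for 6 samples, 2 per condition, grouped by their labels. Per the labels and the methods, the authors depleted ribosomal RNA, sequenced stranded 50 base single-end libraries and aligned them to mm10. The submitters' processing notes name FastQC 0.11, TopHat2 2.0.13, Bowtie2 2.2.5.0 and Partek 6.6. Transcript abundance was estimated by expectation-maximization, and whether strand was used in counting is not stated. The authors deposited estimated counts of RefSeq transcripts without normalization, and RPKM values, which are scaled by the length of the transcript and by the total reads.

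Here the estimated counts were summed per gene symbol, rounded, and fitted in edgeR 4.0.16 (R 4.3.3) with TMM normalization, filterByExpr, 1 coefficient per condition and the likelihood ratio test that the methods name. The Benjamini-Hochberg adjustment covered all 15143 genes tested, and genes were called at an adjusted p under 0.1. RPKM values were used for levels only and were summed over the transcripts of a gene. Errors are SEs of the fit for log2 fold changes and SDs of duplicates for RPKM, and depth limits the lowest values, since DMSO counts of 54 to 80 lie behind 2 of the genes. The test was tried on simulated data for 25 nM RA with 200 of 15022 genes changed by a fold of 2 in either direction. It recovered 99.0% of them, and 10.4% of its calls were false. The quasi-likelihood test and DESeq2 recovered 98.5% and 94.0%, with 5.74% and 5.05% of their calls false. Changes smaller than 2-fold, such as those of Brf2 and Prosc, were not simulated. The changed genes were drawn only from those with a mean above 1 CPM, so that recovery at lower counts was not tried. The simulated spread was that of the fit, so that a spread between dishes beyond it could not show.

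The genes described, the gene lists and the markers were chosen with earlier results of these data known. Genes were named by a rule: the 6 genes, the genes tested within 1 Mb of Zfp703, list genes called at either dose (at most 6 per list with the smallest p, and the others only in a count), and the 5, 5 and 3 genes most like Zfp503, Zfp703 and Adgra2. Of the genes this rule names, 2 are not reported here, though they count in the totals. Lists covered Groucho and NET partners, the Sp family, adhesion receptors, the Adgra2 complex with Wnt7, Erlin2 partners, RNA polymerase III initiation and the human 8p segment, and marker lists covered NMPs, ESCs, feeder fibroblasts, endothelium, neural cells, presomitic mesoderm and endoderm. Ends of genes are the stop column of the tables less 1, because that column lay 1 past the RefSeq end in 6077 of 7344 genes compared. The alternatives were the quasi-likelihood test, DESeq2 1.42.0, other normalizations and filters, the replicate number as a block, single transcripts, other thresholds and distances, the RPKM scale and leaving out each sample. Promoters are from RefSeq and transcripts from GENCODE. Values were tabulated and drawn with Python 3.11.15, pandas 2.3.3, numpy 2.4.6, scipy 1.17.1, biopython 1.88 and matplotlib 3.10.9.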

Additional observations from a re-analysis of the deposited data

How the results depend on the processing

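The log2 fold changes of the 6 genes kept their direction against DMSO at both doses in all 228 values under the alternatives. These values include those of Zfp503, Zfp703 and Adgra2, which were chosen by their change. They also include the threshold of 0.05, which repeats the main value. The count is therefore no measure of how firm the directions are. With RPKM in place of counts, on the log2(RPKM + 0.1) scale, those of Zfp503 came to 3.45 and 3.97 and those of Adgra2 to 2.91 and 3.13, because the added 0.1 weighs on the low DMSO values. Erlin2 and Adgra3 were called at neither dose in any alternative. Brf2 was not called with DESeq2 (log2 fold change 0.2617 at 25 nM RA and 0.2118 at 1 µM RA), nor in the fits on single transcripts (0.263 and 0.2113 in the likelihood ratio test, 0.2634 and 0.2112 in the quasi-likelihood test). Leaving out 1 sample in turn gave Brf2 0.2379 to 0.2908 for the low dose and 0.205 to 0.2204 for the high dose. The neighbours of Zfp703 called, Adgra2 included, were 4 at each dose and 1 between the doses. At 25 nM RA the count was 2 in the quasi-likelihood test on single transcripts. At 1 µM RA it was 5 with the quasi-likelihood test and with a filter of 50 counts, where Rab11fip1 was gained, 3 with library totals and with a threshold of 0.05, 2 with DESeq2 and in both fits on single transcripts, and 2 to 5 without 1 sample in turn. Between the doses it was 0 with the quasi-likelihood test, DESeq2, library totals, no filter, the replicate block, both fits on single transcripts, only the 4 samples compared and a threshold of 0.05, and 0 to 1 without 1 sample in turn. The cause was not tested.

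The replicate numbers are shared by the conditions, but samples of the same number did not deviate together from their condition means (correlations of -0.04, 0.05 and -0.06), so that they do not show a pairing. With the replicate block, 4 neighbours were called at each dose, and Brf2 had log2 fold changes of 0.2631 and 0.2119. With distances of 500 kb and 2 Mb, 9 and 29 neighbours were tested, Adgra2 included. At 25 nM RA 4 and 4 were called, all higher, where 4.5% of all genes were. At 1 µM RA 3 were called within 500 kb, all higher, and 6 within 2 Mb, 4 higher and 2 lower. Of all genes tested, 8.54% were called higher and 11.2% lower at 1 µM RA. With a prior count of 2, 4 of 5, 5 of 5 and 3 of 3 of the genes most like Zfp503, Zfp703 and Adgra2 were the same. In the quasi-likelihood test the counts of the related gene lists were those given, apart from 4 lower Sp genes and 3 higher genes of the human 8p segment at 1 µM RA. No motif was found in the first 200 bases of either promoter. The transcripts of a gene lay on 1 chromosome for all 6 genes. Low counts in DMSO limit the precision of Zfp503 and Adgra2.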
